A study of Mus musculus with 9 samples.

Results

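Cadherins and regulators of the epithelial-mesenchymal transition (EMT) were followed in cultured kidney tubule cells after hypoxia and reoxygenation and after overexpression of the transcription factor Egr1. The 10 genes were Cdh1, Cdh2, Cdh6, Cdh16, Epcam, Vim, Snai1, Snai2, Zeb1 and Twist1, chosen by symbol from the 31167 genes of the expression table. All 10 had a mean of at least 0.5 FPKM (sequenced fragments relative to transcript length and library depth) over the 9 libraries and were tested together with the 13985 genes that met this minimum.

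The libraries came from primary renal tubular epithelial cells of C57BL/6 mouse kidney, 3 each from Sham, H/R and EGR1OV. Sham cells were the negative control. H/R cells spent 6 h in glucose-free medium at 1.0% oxygen and then 18 h in complete medium. EGR1OV cells were transfected with an Egr1 plasmid, which the study's methods describe as driven by a CMV promoter and delivered with EndoFectin Max. None of the 3 groups is labelled as carrying an empty plasmid, so the plasmid and Egr1 itself cannot be told apart. A single treatment text, with transfection and hypoxia, is attached to every library, but the study describes the Sham cells of this experiment as untreated and gives H/R and the plasmid as alternatives. The labels do not say whether replicates were separate cultures or animals, so p-values measure only the spread between these libraries.

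Depth recovered from the FPKM values was 16183618 to 18384026 reads per library. Egr1 was measured at 6.09 to 6.91 FPKM in Sham, 7.48 to 8.57 with H/R and 40.1 to 45.7 in EGR1OV, in the direction of the labels. As a check of the tubular label, the general tubule markers Pax8, Pax2, Krt8 and Krt18 were all at 0.5 FPKM or more. Markers of a mature segment were low. Of the proximal tubule markers 2 of 6 reached 0.5 FPKM, with Slc22a6 at 0 in all 9 libraries. Of the distal tubule and collecting duct markers 0 of 7 reached it, 1 of them being a gene not analysed here.

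Cadherins are calcium-dependent adhesion proteins that join neighbouring cells, and their cytoplasmic tails are anchored to actin through catenins. In EMT, epithelial cells lose E-cadherin (Cdh1) and gain N-cadherin (Cdh2) and the intermediate filament vimentin (Vim), under transcription factors of the Snail, Zeb and Twist families, which bind E-box sequences. The kidney tubule is unusual among epithelia in that N-cadherin and cadherin-6 are normal components of its proximal part, and Cdh16 encodes the kidney-specific Ksp-cadherin.

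Promoters of Epcam, Snai1 and Twist1 are printed because Epcam was the one member called against Sham in both treated groups, and Snai1 and Twist1 were the regulators with the lowest levels. Each line gives the 250 bases before the annotated start, 5′ to 3′ on the gene's strand, from RefSeq (GRCm38.p6), at chr17:87635729-87635978 (plus strand) for Epcam, chr2:167537945-167538194 (plus strand) for Snai1 and chr12:33957421-33957670 (plus strand) for Twist1. Capitals mark E2-boxes (CACCTG or CAGGTG, the core bound by Snail and Zeb proteins) and GC-boxes (GGGCGG or CCGCCC).
Epcam: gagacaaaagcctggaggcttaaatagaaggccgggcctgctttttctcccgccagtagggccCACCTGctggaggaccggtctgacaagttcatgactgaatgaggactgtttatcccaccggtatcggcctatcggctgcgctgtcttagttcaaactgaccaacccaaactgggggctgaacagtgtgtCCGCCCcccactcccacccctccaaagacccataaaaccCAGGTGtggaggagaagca
Snai1: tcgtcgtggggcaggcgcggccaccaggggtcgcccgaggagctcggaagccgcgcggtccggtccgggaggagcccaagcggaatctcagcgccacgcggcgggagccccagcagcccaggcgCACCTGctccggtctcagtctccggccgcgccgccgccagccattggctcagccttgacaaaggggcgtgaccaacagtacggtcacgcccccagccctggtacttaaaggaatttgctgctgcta
Twist1: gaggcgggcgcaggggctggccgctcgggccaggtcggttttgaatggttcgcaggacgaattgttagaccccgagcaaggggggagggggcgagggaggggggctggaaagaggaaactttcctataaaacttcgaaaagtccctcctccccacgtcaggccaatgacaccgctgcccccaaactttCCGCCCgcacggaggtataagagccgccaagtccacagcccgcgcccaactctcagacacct

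The Epcam window held 2 E2-boxes, at bases 187 to 182 and 19 to 14 before the start, and 1 GC-box at bases 58 to 53. The Snai1 window held 1 E2-box at bases 126 to 121, and the Twist1 window held 1 GC-box at bases 62 to 57. Both strands were searched. An EGR-type motif (GCGNGGGCG or CGCCCNCGC, which can overlap a GC-box) was also searched for and not matched in these windows. Among 32851 RefSeq promoters cut to the same length, 17.2% held an E2-box, 32.7% a GC-box and 4.70% the EGR-type motif, so single matches of the first 2 kinds are common. A match is a run of letters and not evidence of binding. Of the 10 genes, 5 were matched to a promoter entry (Cdh6, Epcam, Vim, Snai1 and Twist1), 4 of them with the same start as in the expression table. Cdh1, Cdh2, Cdh16, Snai2 and Zeb1 had no matched entry.

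In EGR1OV against Sham, Cdh2 fell, and Cdh1 was higher by less than the fold threshold. Epcam rose, Twist1 fell, and Vim was lower at just under the threshold. After H/R, Epcam rose and was the only member called. A gene was called at a limma adjusted p under 0.05 and past a fold threshold. The threshold was 1.3-fold where EGR1OV was set against either other group, and 1.2-fold where H/R was set against Sham. It was applied to the difference on the log2(FPKM + 1) scale, which is smaller than the FPKM fold for low genes. By this rule 3 of 10 members were called in EGR1OV against Sham, where 16.4% of all genes tested were called. In H/R against Sham 1 of 10 was called, against 4.25% of all genes, and in EGR1OV against H/R 4 of 10 were called, against 18.9%. By direction, EGR1OV against Sham gave 1 member higher and 2 lower, beside 9.87% and 6.51% of all genes, and EGR1OV against H/R gave 1 higher and 3 lower, beside 11.9% and 6.94%. For H/R against Sham it was 1 higher and 0 lower, beside 1.6% and 2.65%. Without the fold threshold the members past adjusted p were 9, 1 and 7 of 10, beside 45.9%, 11.7% and 51% of all genes. In bulk libraries a change in the number of cells that express a gene and a change in RNA per cell cannot be told apart.

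**Figure D1:**
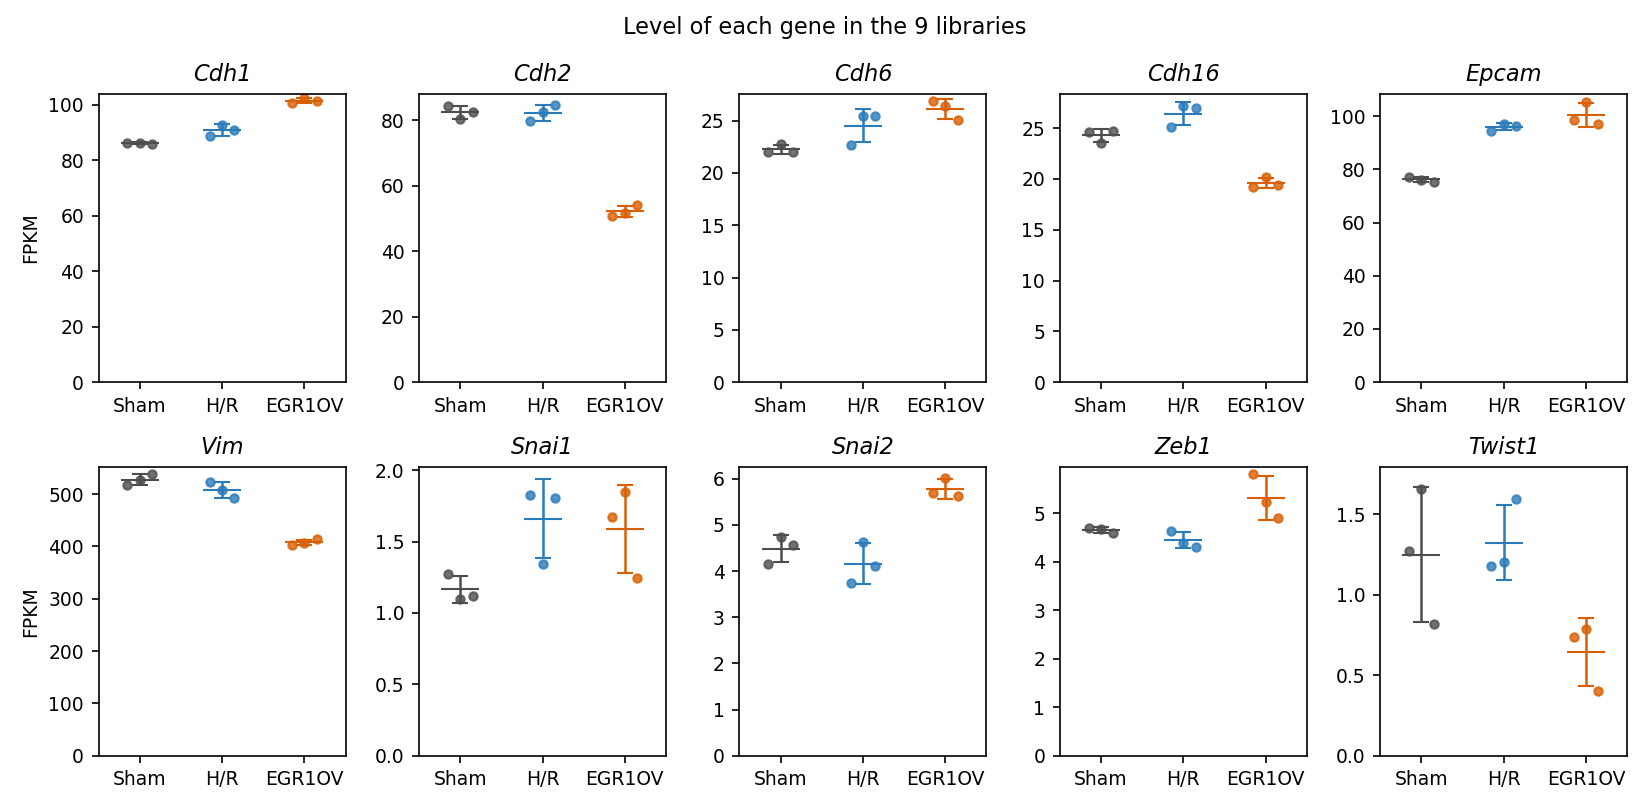
FPKM of each of the 10 genes (vertical axis, starting at 0) in the 3 libraries of Sham, H/R and EGR1OV (points), with the mean (long line) and SD (bars). The EGR1OV libraries lie below all others for Cdh2 (50.9 to 54.1 FPKM), Cdh16, Vim and Twist1, and both treated groups lie above Sham for Epcam.

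Cdh2 (ENSMUSG00000024304, chr18:16588877-16809246, minus strand), which encodes N-cadherin, was at 84.4, 80.5 and 82.5 FPKM in Sham, at 79.8, 82.6 and 84.6 in H/R and at 50.9, 51.5 and 54.1 in EGR1OV. Sham and H/R overlapped, and each EGR1OV library lay well below both. The means were 82.5 ± 1.97, 82.3 ± 2.41 and 52.2 ± 1.73 FPKM (± SD, n = 3 libraries). Cdh2 fell by 0.65 on the log2(FPKM + 1) scale in EGR1OV against Sham (SE 0.033, limma adjusted p 3.47e-07), and the EGR1OV mean was 0.633 of the Sham mean. Against H/R it also fell by 0.65 (limma adjusted p 3.30e-07). Both calls held under every alternative that was run. In H/R against Sham the log2 difference was -0.003 (limma adjusted p 0.971), with a 95% interval of -0.078 to 0.072. By an exact two-sided permutation test EGR1OV gave p 0.1 against each other group, the smallest that 3 against 3 allows, and H/R against Sham gave p 1. The values rest on 6793 to 12244 reads per library.

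Cdh1 (ENSMUSG00000000303, chr8:106603351-106670246, plus strand), the gene of E-cadherin, was at 86.4, 86.4 and 86.0 FPKM in Sham, at 88.7, 92.8 and 91.1 in H/R and at 101, 102 and 101 in EGR1OV. The 3 groups did not overlap and ordered as Sham, H/R and EGR1OV. The EGR1OV mean of 102 ± 0.856 FPKM was 1.18 times the Sham mean of 86.2 ± 0.247 (± SD, n = 3 libraries). This log2 difference of +0.23 (SE 0.023) passed the limma test (adjusted p 3.44e-05) but not the fold threshold. H/R, at 90.9 ± 2.09 FPKM, differed from Sham by +0.07 (limma adjusted p 0.0691). After median-ratio scaling that difference was +0.12 (limma adjusted p 0.0179), still under the fold threshold.

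The ratio of Cdh2 to Cdh1 within each library was 0.956 ± 0.0227 in Sham, 0.906 ± 0.020 after H/R and 0.514 ± 0.0176 in EGR1OV (± SD, n = 3 libraries). Transcripts of N-cadherin and E-cadherin were thus near parity per length in Sham cells, and E-cadherin was in excess in EGR1OV. These ratios are descriptions and were not tested.

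Cdh6 and Cdh16 lay on opposite sides of Sham in EGR1OV. Cdh6 (ENSMUSG00000039385, chr15:13028701-13173675, minus strand) encodes cadherin-6, also called K-cadherin, which is prominent in the developing nephron. It was at 22.03, 22.7 and 22.01 FPKM in Sham, 22.7, 25.5 and 25.4 after H/R and 26.9, 26.4 and 25.02 in EGR1OV. The EGR1OV libraries lay above Sham, while H/R overlapped both. The log2 difference was +0.22 in EGR1OV (SE 0.047, limma adjusted p 0.00413), under the fold threshold, and +0.13 in H/R (limma adjusted p 0.105). Without H/R replicate 1, the lowest of its group, the H/R difference was +0.19 (limma adjusted p 0.0231), and the adjusted p was also under 0.05 after median-ratio scaling (0.0478) and by voom (0.0197), each time under the fold threshold.

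Cdh16 (ENSMUSG00000031881, chr8:104601911-104624396, minus strand) was at 24.6, 23.6 and 24.7 FPKM in Sham, 25.1, 27.2 and 26.99 after H/R and 19.2, 20.2 and 19.4 in EGR1OV. EGR1OV was the lowest group and H/R the highest, with no overlap among the 3. Cdh16 fell by 0.41 in EGR1OV against H/R (SE 0.037, limma adjusted p 1.68e-05), a call that held under every alternative run. Against Sham the log2 difference was -0.30 (limma adjusted p 0.000171), under the fold threshold except after quantile normalization, where it was -0.38. For H/R against Sham it was +0.12 (limma adjusted p 0.0751), with an adjusted p of 0.0304 after median-ratio scaling (+0.16), 0.0369 without H/R replicate 1 (+0.15) and 0.0434 by voom (+0.12), still under the fold threshold. The Cdh16 to Cdh6 ratio was 1.09 ± 0.0481 in Sham, 1.079 ± 0.0257 after H/R and 0.751 ± 0.0319 in EGR1OV (± SD, n = 3 libraries).

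The 4 cadherin members made up most of the cadherin transcripts. Over the 18 genes named as cadherins (Cdh) in the table, the summed level was 288 ± 2.25 FPKM in Sham, 304 ± 7.75 after H/R and 268 ± 1.80 in EGR1OV (± SD, n = 3 libraries). Cdh1 accounted for 29.97% of it in Sham, 29.9% after H/R and 37.9% in EGR1OV. Cdh2 accounted for 28.7%, 27.1% and 19.5%. Thus the Cdh2 share was lower and the Cdh1 share higher in EGR1OV, while the whole sum was a little lower. Cdh6 went from 7.73% in Sham to 9.74% in EGR1OV, and Cdh16 from 8.44% to 7.31%. The largest remaining share was that of Cdh11, the osteoblast cadherin found mainly in mesenchymal cells, at 13.9% in Sham, 16.6% after H/R and 15.1% in EGR1OV.

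**Figure D2:**
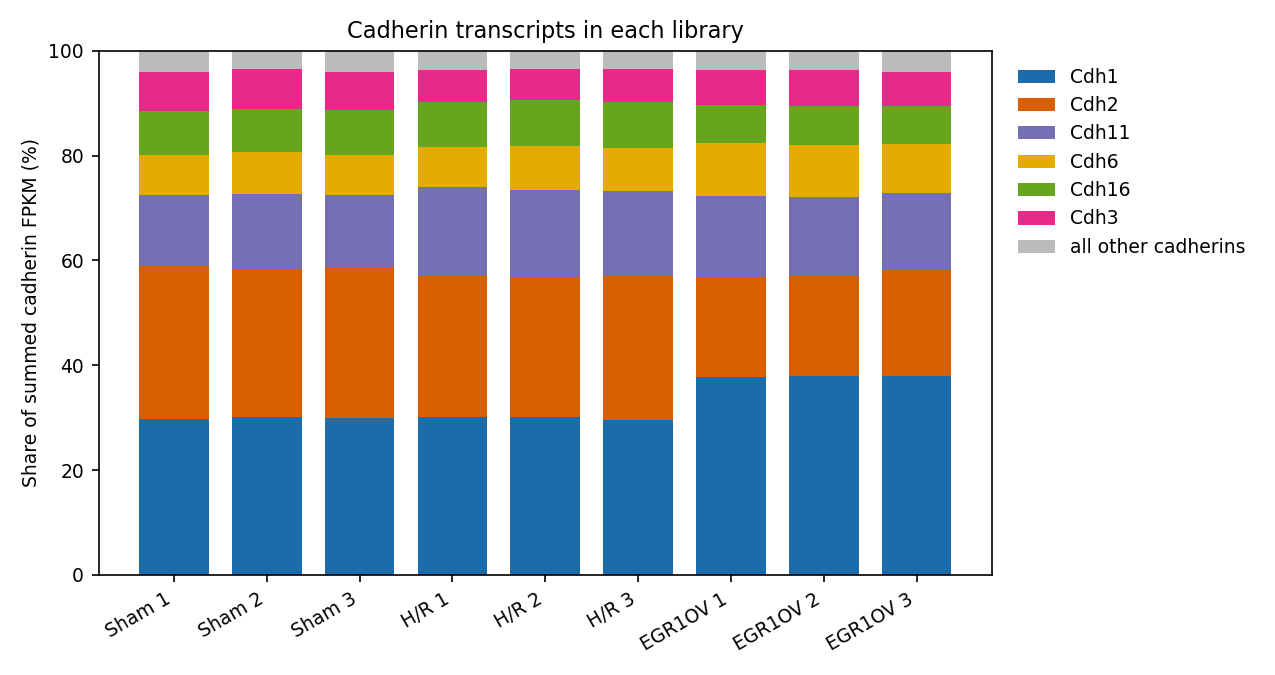
Share of the summed cadherin FPKM (vertical axis, percent) taken by each of 6 cadherins and by all others in each of the 9 libraries (bars). Cdh1 takes 37.8 to 37.9% in the EGR1OV libraries and 29.6 to 30.2% in the remaining libraries, and Cdh2 takes 19.1 to 20.2% in EGR1OV.

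Epcam (ENSMUSG00000045394, chr17:87635979-87651106, plus strand), a surface adhesion molecule of epithelia, was the one member called in both treated groups against Sham. It was at 77.1, 76.1 and 75.4 FPKM in Sham, 94.6, 97.1 and 96.3 after H/R and 98.5, 105 and 97.2 in EGR1OV. Every treated library lay above every Sham library. Epcam rose by 0.33 in H/R (SE 0.032, limma adjusted p 0.0006), with a mean 1.26 times that of Sham, and this call held under every alternative run. In EGR1OV it rose by 0.39 (SE 0.032, limma adjusted p 9.13e-06), with a mean 1.32 times that of Sham. The EGR1OV rise lay at the threshold, and it was under 1.3-fold after median-ratio scaling (+0.36), after quantile normalization (+0.34) and without EGR1OV replicate 2 (+0.36). The treated groups differed by +0.06 (limma adjusted p 0.133), with a 95% interval of -0.010 to 0.135. Both comparisons with Sham use the same Sham libraries.

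Vim (ENSMUSG00000026728, chr2:13573927-13582826, plus strand), the intermediate filament used as a mesenchymal marker, had the highest level of the 10 genes in each group. It was at 518, 527 and 538 FPKM in Sham, 523, 509 and 492 after H/R and 404, 406 and 414 in EGR1OV. Only EGR1OV stood apart, below both. Against Sham the log2 difference was -0.37 (SE 0.028, limma adjusted p 5.05e-06), just short of 1.3-fold, and the EGR1OV mean was 0.772 of the Sham mean. It passed the fold threshold after median-ratio scaling (-0.40), without Sham replicate 1 (-0.38) and without EGR1OV replicate 3 (-0.38). Against H/R the log2 difference was -0.32 (limma adjusted p 1.44e-05), also under the threshold, which it passed after median-ratio scaling (-0.39). H/R and Sham differed by -0.06 (limma adjusted p 0.226). The ratio of Vim to Epcam was 6.93 ± 0.212 in Sham, 5.29 ± 0.215 after H/R and 4.07 ± 0.207 in EGR1OV (± SD, n = 3 libraries), a description with no test.

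Markers of other cell types and of the proximal tubule also differed between groups. Vimentin is also made by macrophages and fibroblasts. The summed level of the macrophage and leukocyte markers (10 listed, 7 at 0.5 FPKM or more) was 140 to 144 FPKM in Sham, 116 to 123 with H/R and 22.1 to 26.6 in EGR1OV. All 7 tested were called lower in EGR1OV against Sham and 2 in H/R. The fibroblast and pericyte markers (7 listed, 3 at 0.5 FPKM or more) summed to 32.1 to 33.6 FPKM in Sham. Their sum was 38.2 to 39.8 FPKM with H/R and 37.0 to 42.0 in EGR1OV, with Lum at 0 in all Sham and H/R libraries. It came mostly from the collagen genes Col1a1 and Col1a2. Col1a1 averaged 21.1 FPKM in Sham, 25.8 with H/R and 25.7 in EGR1OV, and Col1a2 averaged 7.22, 9.28 and 10.2. Pdgfrb did not rise with this sum. Its range was 3.93 to 4.37 FPKM in Sham, 3.09 to 3.73 with H/R and 3.74 to 3.94 in EGR1OV. The endothelial markers (6 listed, 4 at 0.5 FPKM or more) summed to 6.53 to 6.87, 6.43 to 6.75 and 4.58 to 5.05 FPKM. The general tubule markers summed to 1701 to 1742, 1531 to 1616 and 1012 to 1117 FPKM, mostly from the keratins Krt8 and Krt18. Pax2 and Pax8 did not fall with this sum. Pax2 averaged 14.6 FPKM in Sham, 14.3 with H/R and 19.1 in EGR1OV, and Pax8 averaged 13.1, 12.3 and 13.5. The Pax2 difference in EGR1OV against Sham was +0.36 (limma adjusted p 0.000431), under the fold threshold, and against H/R it was called higher (+0.39). The proximal tubule markers summed to 5.44 to 5.53 FPKM in Sham, 4.84 to 5.29 with H/R and 1.92 to 2.21 in EGR1OV, where both tested (Lrp2 and Aqp1) were called lower than in Sham. The part of these cell types in the values of Vim, Cdh2, Cdh11, Zeb1, Snai2 and Twist1 was not tested.

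The EMT transcription factors were all at low levels, and their calls differed. In EGR1OV against Sham only Twist1 was called, and it fell. Snai2 and Zeb1 were higher by less than the fold threshold, and Snai1 passed neither threshold on the log2(FPKM + 1) scale. Snai2 (ENSMUSG00000022676, chr16:14705852-14709395, plus strand), which encodes the repressor Slug, was at 4.16, 4.74 and 4.56 FPKM in Sham, 3.74, 4.63 and 4.11 after H/R and 5.69, 6.03 and 5.62 in EGR1OV. EGR1OV lay above both other groups, which overlapped. Snai2 rose by 0.40 in EGR1OV against H/R (SE 0.068, limma adjusted p 0.00104). The rise was under 1.3-fold after median-ratio scaling (+0.34), after quantile normalization (+0.27), without H/R replicate 1 (+0.34) and without EGR1OV replicate 2 (+0.37). Against Sham the log2 difference was +0.31 (limma adjusted p 0.00533), with a ratio of means of 1.29, and for H/R against Sham it was -0.09 (limma adjusted p 0.427).

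Zeb1 (ENSMUSG00000024238, chr18:5591860-5775467, plus strand) encodes a zinc finger repressor of E-cadherin. It was at 4.70, 4.67 and 4.58 FPKM in Sham, 4.63, 4.39 and 4.31 after H/R and 5.80, 5.23 and 4.91 in EGR1OV. EGR1OV was the highest group, with the widest spread. The log2 difference was +0.16 against Sham (SE 0.055, limma adjusted p 0.0413) and +0.21 against H/R (limma adjusted p 0.0099), both under the fold threshold. The adjusted p against Sham was 0.0687 after median-ratio scaling, 0.233 after quantile normalization, 0.0791 with no filter on low values and 0.0659 with only the 2 groups in the fit. It was also above 0.05 without any one of Sham replicates 1, 2 and 3 (0.0773, 0.0841 and 0.102), H/R replicates 2 and 3 (0.0564 and 0.0512) or EGR1OV replicates 1 and 2 (0.130 and 0.0742).

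Twist1 (ENSMUSG00000035799, chr12:33957671-33959829, plus strand), a basic helix-loop-helix factor of mesenchymal cells, was at 1.27, 1.66 and 0.819 FPKM in Sham, 1.18, 1.203 and 1.59 after H/R and 0.740, 0.789 and 0.402 in EGR1OV. The EGR1OV libraries were the lowest, though Sham replicate 3 came close to them. Counts were small, with 22 to 47 reads in Sham, 31 to 46 with H/R and 11 to 21 in EGR1OV. Twist1 fell by 0.44 on the log2(FPKM + 1) scale in EGR1OV against Sham (SE 0.151, limma adjusted p 0.0377), and the EGR1OV mean was 0.516 of the Sham mean. It fell by 0.50 against H/R (limma adjusted p 0.0198). With a pseudocount of 0.1 the differences were -0.85 and -0.97, and by voom on the recovered reads -0.95 and -1.07, against -0.66 for Cdh2 in all 4 cases.

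Neither Twist1 call was stable. The adjusted p against Sham was 0.0955 with no filter on low values and 0.0600 with only the 2 groups in the fit. It was 0.0909 without Sham replicate 1, 0.128 without Sham replicate 2, 0.0506 without H/R replicate 2, 0.0547 without EGR1OV replicate 1 and 0.124 without EGR1OV replicate 3. Against H/R it was 0.0555 with no filter, 0.0711 without H/R replicate 3 and 0.0691 without EGR1OV replicate 3. For H/R against Sham the Twist1 log2 difference was +0.06 (limma adjusted p 0.842).

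Snai1 (ENSMUSG00000042821, chr2:167538195-167542814, plus strand), the gene of Snail, was at 1.28, 1.10 and 1.12 FPKM in Sham, 1.83, 1.34 and 1.81 after H/R and 1.67, 1.85 and 1.25 in EGR1OV. The H/R libraries lay above Sham, and EGR1OV overlapped both. The H/R mean was 1.43 times the Sham mean, with a log2 difference of +0.29 (SE 0.106, limma adjusted p 0.111). The EGR1OV difference was +0.25 (limma adjusted p 0.0818), with a 95% interval of 0.012 to 0.493, and without EGR1OV replicate 3 it was +0.35 (limma adjusted p 0.0217), still under the fold threshold. The values rest on 30 to 52 reads per library.

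**Figure D3:**
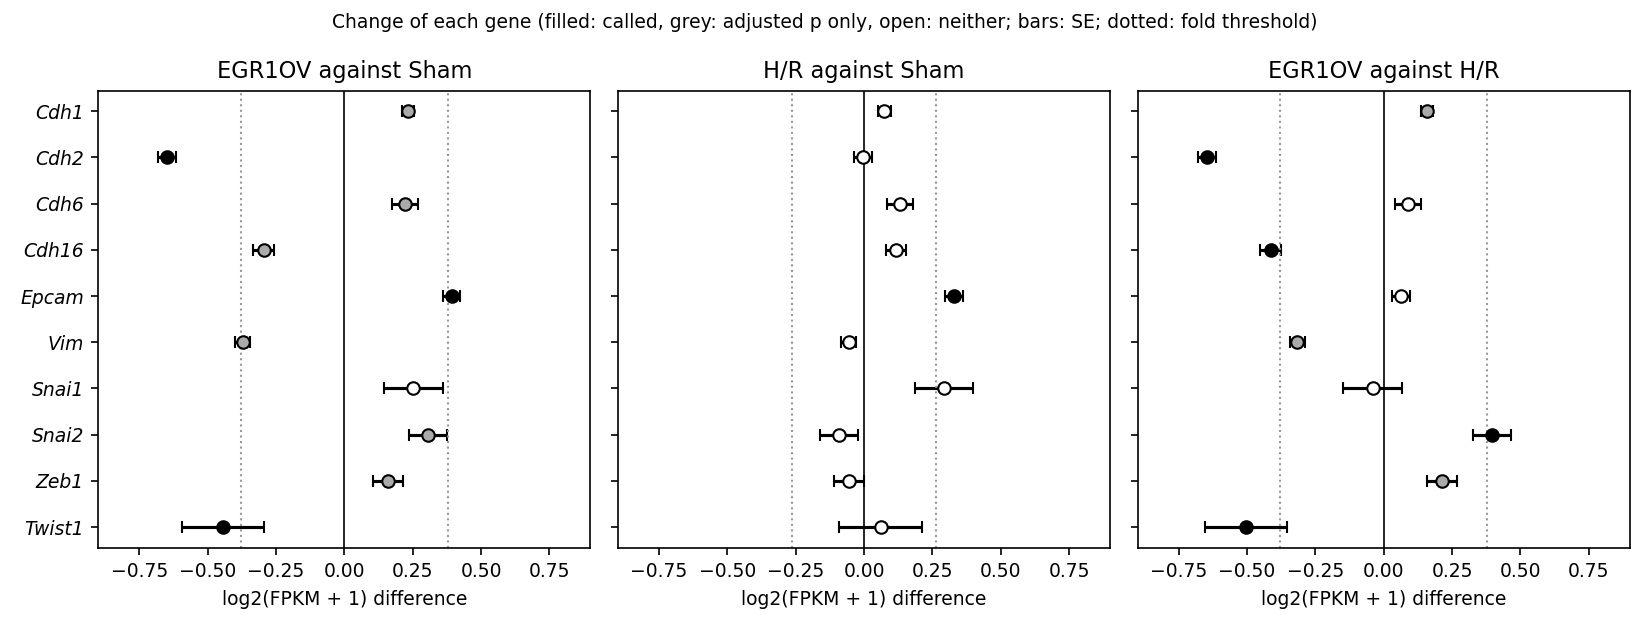
Difference of each of the 10 genes on the log2(FPKM + 1) scale (horizontal axis) in the 3 comparisons, with SE (bars) and the fold threshold (dotted lines). Filled points are called, grey points passed only the adjusted p and open points passed neither; Cdh2 is at -0.65 in both EGR1OV comparisons, and Epcam at +0.33 is the only filled point for H/R.

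Library values of 9 members did not overlap between EGR1OV and Sham, beside 55.7% of all genes tested. For H/R against Sham this held for 4 members (Cdh1, Cdh16, Epcam and Snai1), beside 33.6%, and for EGR1OV against H/R for 8, beside 58.6%. Only Snai1 overlapped between EGR1OV and Sham. All 10 members had an unadjusted p under 0.05 in EGR1OV against Sham, as did 52.5% of all genes. In H/R against Sham 5 members did, beside 28% of all genes, and in EGR1OV against H/R 7 did, beside 56.5%.

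Levels were ordered in much the same way in Sham and H/R. In Sham the order was Vim, Cdh1, Cdh2, Epcam, Cdh16, Cdh6, Zeb1, Snai2, Twist1 and Snai1, and the library ranges of neighbours overlapped only for Zeb1 with Snai2 and for Twist1 with Snai1. In H/R, Epcam (96.0 ± 1.301 FPKM) stood above Cdh1, and Cdh16 and Cdh6 overlapped. In EGR1OV, Cdh1 (102 ± 0.856 FPKM) and Epcam (100.4 ± 4.46 FPKM) overlapped at the second place, Cdh2 followed at 52.2 FPKM, and Cdh6 stood above Cdh16. Twist1 was then the lowest, below Snai1 with no overlap.

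Genes with a pattern most like that of Cdh2 over the 9 libraries were Sorbs2 (Pearson r 0.998), an adaptor of the actin cytoskeleton, Grb10 (0.998), an adaptor of the insulin receptor, and Igfbp2 (0.997), an insulin-like growth factor binding protein. Igfbp2 went from 375 ± 2.26 FPKM in Sham and 370 ± 5.83 in H/R to 226 ± 5.14 in EGR1OV (± SD, n = 3 libraries). For Twist1 they were Lmln (0.963), Ikzf2 (0.941) and Tmed8 (0.938). The 9 points share their libraries and their 3 groups, and the correlations are descriptions with no test.

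Other genes of the EMT programme and of the adhesion junction were read from 8 lists with 103 genes, of which 80 were tested. In EGR1OV against Sham 24 were called, 11 higher and 13 lower, a share of 30% beside the 16.4% of all genes. In H/R against Sham 5 were called (6.25% beside 4.25%), all higher, and leaving out each library gave 2 to 4 (2 without Sham replicate 1, and 3 without Sham replicate 3, H/R replicate 1 or H/R replicate 2). In EGR1OV against H/R 24 were called, 9 higher and 15 lower, a share of 30% beside 18.9%. No list had all its tested genes called, and in EGR1OV against Sham the calls on the epithelial state and mesenchymal state lists went both ways.

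**Figure D4:**
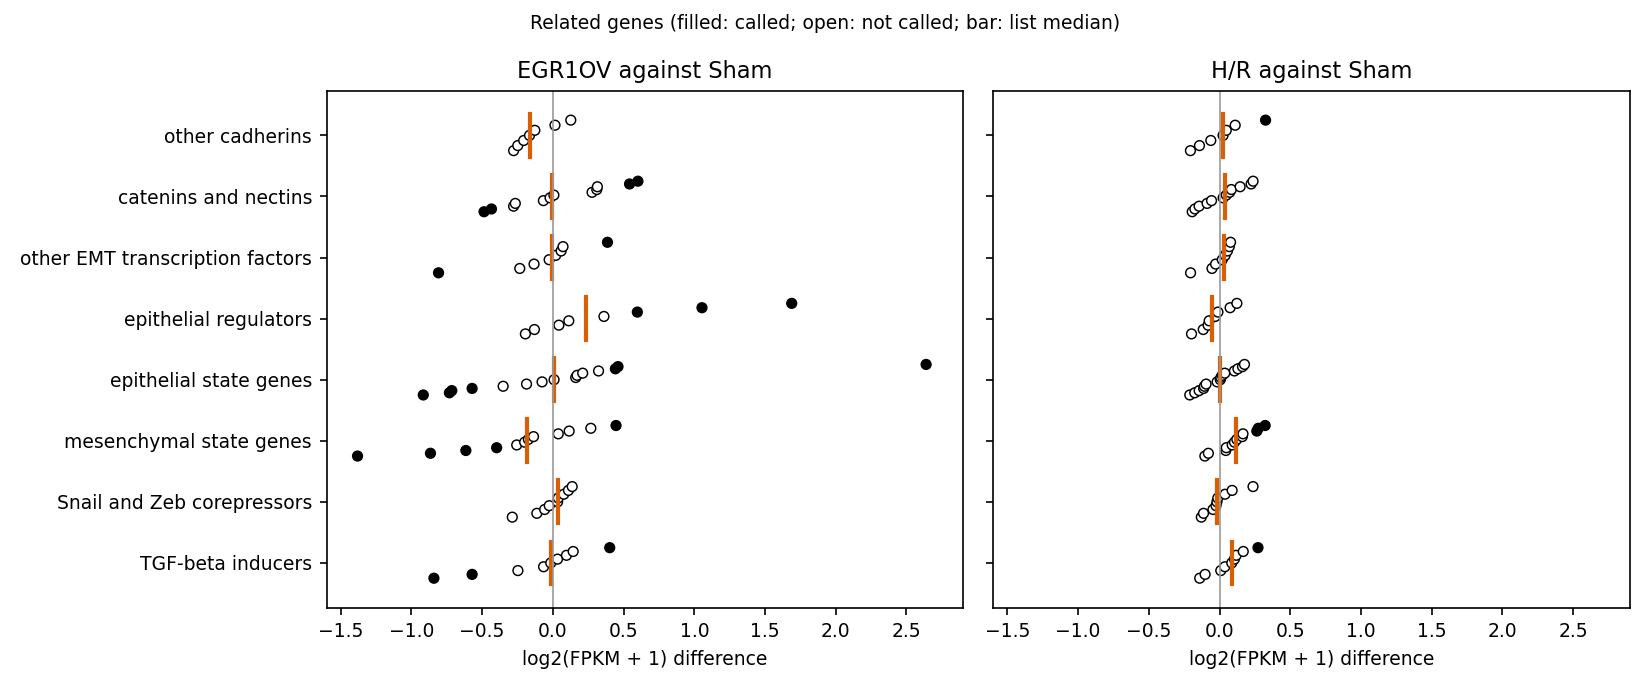
Difference on the log2(FPKM + 1) scale (horizontal axis) of each tested gene of 8 related lists in EGR1OV and in H/R against Sham, filled where called, with the list median (bar). Calls lie on both sides of 0 in EGR1OV, from Acta2 at -1.38 to Muc1 at +2.64, and the 5 calls in H/R all lie above 0.

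Among the 7 other cadherins tested, 0 were called in EGR1OV against Sham, with a list median of -0.17 beside 0.02 over all genes, while 2 passed the limma adjusted p with no fold threshold, 3 had an unadjusted p under 0.05 and voom on recovered reads called 2. Cdh11 was the one called in H/R, rising from 40.0 ± 0.867 to 50.4 ± 0.872 FPKM (SD, n = 3), by 0.33 (limma adjusted p 0.000451). In EGR1OV its log2 difference from Sham was +0.01 (limma adjusted p 0.714). Cdh5, the endothelial cadherin, was the one called in EGR1OV against H/R, and it was lower by 0.39 on the log2 scale (limma adjusted p 0.000345). It lies outside the rule for named genes and was chosen after its values were seen.

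Of the 12 catenins and nectins tested, 2 rose and 2 fell in EGR1OV against Sham. Nectin2 rose by 0.60 (29.1 ± 0.555 to 44.7 ± 2.01 FPKM) and Pvr, a related immunoglobulin-like adhesion receptor, by 0.54, while vinculin (Vcl), which links junctions to actin, fell by 0.49 (limma adjusted p at most 1.99e-06). Nectin3 fell by 0.67 and Nectin4 rose by 0.40 in EGR1OV against H/R, the latter under 1.3-fold after either other scaling and without H/R replicate 3 (+0.35). Some catenins, chosen after their values were seen, passed the adjusted p but not the fold threshold in EGR1OV against Sham. They were beta-catenin (Ctnnb1) at +0.31, alpha-catenin (Ctnna1) at -0.28, p120-catenin (Ctnnd1) at +0.28 and Ctnnd2 at -0.27. The catenin Jup was at +0.007 (limma adjusted p 0.894) and did not pass.

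Of the 8 other EMT transcription factors tested, Klf8 fell and Foxc1 rose in EGR1OV. Klf8, a repressor of E-cadherin, went from 6.47 ± 0.274 to 3.26 ± 0.141 FPKM (SD, n = 3) against Sham, and fell by 0.81 (limma adjusted p 8.04e-07). The forkhead factor Foxc1 rose by 0.39 (limma adjusted p 0.00469). This change was under the fold threshold after median-ratio scaling (+0.36), after quantile normalization (+0.29), without Sham replicate 1 (+0.32) and without EGR1OV replicate 1 (+0.35). Zeb2, the paralog of Zeb1, chosen outside the rule for named genes, was at +0.02 (limma adjusted p 0.786). In H/R 0 of 8 passed the limma adjusted p, or the one from voom, and 1 had an unadjusted p under 0.05.

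Of the 8 epithelial regulators tested, 3 rose in EGR1OV against Sham and 0 fell past the threshold, with a list median of +0.24 beside 0.02 over all genes. With no fold threshold 4 were higher and 2 lower by the limma adjusted p. The Ets factor Ehf rose from 3.90 ± 0.112 to 14.8 ± 0.674 FPKM (+1.69), its relative Elf3 from 4.14 ± 0.372 to 9.66 ± 0.359 (+1.05) and Klf4 from 4.41 ± 0.291 to 7.19 ± 0.544 (+0.60), each with n = 3 (limma adjusted p at most 4.59e-05). Grhl2, an activator of Cdh1 in other epithelia that was also chosen outside that rule, was at +0.11 (limma adjusted p 0.138). In H/R 0 of these 8 passed the limma adjusted p, or the one from voom, and 4 had an unadjusted p under 0.05.

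The 15 epithelial state genes gave 3 calls higher and 4 lower in EGR1OV against Sham. The mucin Muc1 rose from 0.559 ± 0.0181 to 8.71 ± 0.413 FPKM (+2.64). The keratins Krt19 and Krt18 fell by 0.92 and 0.73 (83.3 ± 1.41 to 43.7 ± 1.67 FPKM, and 685 ± 13.3 to 412 ± 15.9), although Cdh1 and Epcam were higher in the same libraries. Limma adjusted p values were at most 1.77e-07, with n = 3 per group. Krt8 fell by 0.61 against H/R. It was also called lower against Sham, by 0.71 (limma adjusted p 8.77e-07), where it was outside the rule for named genes.

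Of the 12 mesenchymal state genes tested, 1 rose and 4 fell in EGR1OV against Sham, and 3 rose in H/R. Smooth muscle actin (Acta2) fell from 2947 ± 63.7 to 1131 ± 38.9 FPKM (-1.38, limma adjusted p 3.57e-09) and fibronectin (Fn1) from 2090 ± 35.8 to 1364 ± 37.9 (-0.62), beside the lower Vim and Cdh2. After quantile normalization the Acta2 difference was -0.91, and that of Fn1 was -0.005 (limma adjusted p 0.954). The Fn1 difference against H/R was then -1.8e-15. Quantile normalization gives equal ranks equal values, so it cannot show a change in a gene that keeps its rank. This setting therefore cannot decide whether the Fn1 fall depends on scaling. The collagen gene Col1a2, also a fibroblast marker, rose by 0.45 in EGR1OV (limma adjusted p 2.18e-05) and by 0.32 in H/R. After quantile normalization the EGR1OV rise was 0.35, under the fold threshold. Col1a1 rose by 0.27 in H/R (limma adjusted p 0.0235), and its adjusted p was above 0.05 with no filter on low values and without Sham replicate 1, 2 or 3 or H/R replicate 2 or 3 (0.0532 to 0.0776).

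TGF-beta is a strong inducer of EMT, and its 3 ligands moved in different directions in EGR1OV against Sham. Tgfb3 fell by 0.84 (63.1 ± 0.485 to 34.8 ± 1.33 FPKM), Tgfb2 fell by 0.57 (31.2 ± 0.933 to 20.7 ± 0.904) and Tgfb1 rose by 0.40 (9.88 ± 0.413 to 13.4 ± 0.244), each with n = 3 and a limma adjusted p of at most 6.00e-05. The Tgfb1 rise was under the fold threshold after median-ratio scaling (+0.37), after quantile normalization (+0.30) and without Sham replicate 1 (+0.37). Tgfb1 was also called in H/R, at +0.27 (limma adjusted p 0.00595), and it was under the fold threshold without Sham replicate 1 or H/R replicate 1. Of the 9 corepressors that work with Snail and Zeb proteins, 0 were called in each of the 3 comparisons by limma and by voom, while 3, 2 and 4 passed the limma adjusted p with no fold threshold and 4 in each had an unadjusted p under 0.05.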

How the data were processed

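RNA sequencing values were deposited by the authors as 1 table of FPKM, in which every library keeps its own column. The submitters' processing notes name Bowtie2 2.2.3, HISAT2 2.1.0, TopHat2 and the mm9 build, with no role or order. However, 94.6% of gene positions equalled GENCODE M21 (GRCm38), and coordinates are those of the table. The 10 genes and all lists were chosen with earlier results of these data known, and 1 listed gene is not reported here.

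With M21 exon lengths, 94.0% of 162879 low values came out whole within 0.02 reads, which gave the depths. For Epcam and Snai2 reads were not whole and are not given. Reads cover counting error only.

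A single limma fit (version 3.58.1 in R 4.3.3, with trended eBayes, two-sided, Benjamini-Hochberg) was made to log2(FPKM + 1), a scale that understates changes of low genes, over all 9 libraries and the 13985 genes averaging 0.5 FPKM or more. The fold thresholds against Sham are the study's, and that against H/R was chosen here. Single genes were compared by an exact permutation test. Named genes were all members, up to 3 called genes of at least 5 FPKM per list and comparison with the largest change, and for the 2 members of widest range the 3 most correlated genes. Promoters were searched with Python 3.11.15. The code was tested on simulated data. Alternatives were a pseudocount of 0.1, no filter, a minimum mean of 5 FPKM, scaling by median ratios, quantile normalization, a replicate block, no trend, only the groups compared, no fold threshold and each library left out. Limma voom on the recovered reads (counts rebuilt from the FPKM) was added after the data were examined.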

Additional observations from a re-analysis of the deposited data

Results flagged for a closer look

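The effects of the treatments against Sham were compared directly, as EGR1OV against H/R. By limma 4 of 10 members differed past both thresholds, beside 18.9% of all genes tested. Cdh2 differed by -0.65 on the log2(FPKM + 1) scale, with means of 52.2 FPKM in EGR1OV and 82.3 with H/R. Cdh16 differed by -0.41, with EGR1OV below Sham and H/R above it. Snai2 differed by +0.40, with EGR1OV above Sham. On the log2(FPKM + 1) scale Snai2 was under the fold threshold after median-ratio scaling (+0.34) or quantile normalization (+0.27). The same held without H/R replicate 1 (+0.34) or EGR1OV replicate 2 (+0.37). Twist1 differed by -0.50, on 11 to 21 reads per EGR1OV library, and its adjusted p was 0.0555 with no filter on low values, 0.0711 without H/R replicate 3 and 0.0691 without EGR1OV replicate 3.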

How the results depend on the processing

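The members called were 3 in EGR1OV against Sham, 1 in H/R against Sham and 4 in EGR1OV against H/R, and leaving out each library gave 2 to 3, 1 to 1 and 3 to 4. With no fold threshold they were 9 in EGR1OV against Sham (beside 45.9% of all genes) and 7 in EGR1OV against H/R (beside 51%). In the latter comparison a mean of at least 5 FPKM left 2, Cdh2 and Cdh16. Only 6 members met that minimum, and Snai2 and Twist1 were not tested there. Related genes called with no fold threshold were 52, 21 and 48 of the 80 tested, beside 45.9%, 11.7% and 51% of all genes. For H/R against Sham they were 3 with no filter on low values and 2 to 4 on leaving out each library (2 without Sham replicate 1, and 3 without Sham replicate 3, H/R replicate 1 or H/R replicate 2). The other comparisons gave 23 to 24 and 20 to 24. Voom called 3, 1 and 4 members, on reads rounded to whole numbers. For Epcam, which it called in EGR1OV against Sham, and for Snai2 the recovered reads were not whole before rounding.

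Differences that changed sign were small and did not pass the test. Cdh2 in H/R against Sham became 0.038 with median-ratio scaling and 0.0097 with quantile normalization, and ran from -0.022 to 0.019 on leaving out each library (0.014 without Sham replicate 1). Twist1 there ran from -0.084 without Sham replicate 3 to 0.189 without Sham replicate 2, with -0.021 without H/R replicate 3. In EGR1OV against H/R, Cdh6 became -0.0024 after quantile normalization, Epcam -0.0075 with median-ratio scaling and -0.012 with quantile normalization, and Snai1 ran from -0.130 without H/R replicate 2 to 0.058 without EGR1OV replicate 3 (0.0065 and 0.0011 without H/R replicates 1 and 3). The cause was not tested.

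Correlations of same-numbered libraries ran from -0.195 to 0.263, and those of differently numbered libraries from -0.222 to 0.179. With 3 libraries per group these values cannot decide whether the replicate numbers pair the libraries. With the replicate block 3, 1 and 4 members and 24, 4 and 24 related genes were called, and not every library correlated best with its own number. Twist1 and Snai1 rest on 11 to 52 reads per library, and every comparison on 3 libraries per group.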

Other observations

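Of the cadherin genes at 0.5 FPKM or more, 5 lie on chromosome 8 in the table's coordinates, in the order Cdh11, Cdh5, Cdh16, Cdh3 and Cdh1, and their differences from Sham were not alike. Cdh3, the gene of P-cadherin, ends 46.1 kb before the start of Cdh1. Cdh3 averaged 21.6 ± 0.494 FPKM in Sham, 18.6 ± 0.747 after H/R and 18.003 ± 0.473 in EGR1OV (± SD, n = 3 libraries), while Cdh1 was highest in EGR1OV. The Cdh3 differences from Sham were -0.21 in H/R (limma adjusted p 0.00891) and -0.25 in EGR1OV (limma adjusted p 0.000427), both under the fold thresholds. Cdh3 was named after its values were seen.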
